A study of Mus musculus with 50 samples.

Results

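The proteasome degrades proteins that carry a chain of ubiquitin. Its 20S core is a barrel of alpha and beta rings whose beta 1, beta 2 and beta 5 subunits cut the substrate protein. The 19S cap recognises the ubiquitin, removes it, unfolds the substrate with a ring of ATPases and feeds it into the barrel. Other activators, PA28 and PA200, can dock on the barrel in place of the cap, and interferon replaces the 3 catalytic subunits of newly built barrels with inducible counterparts, which makes the immunoproteasome that trims peptides for antigen presentation. In skeletal muscle the ubiquitin proteasome system removes myofibrillar proteins, and it is known for its part in fasting, disuse and denervation atrophy.

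The members were all gene symbols made of Psm, a letter from a to g and a number, with a level of at least 1 TPM (an expression level scaled for transcript length and library size) in at least 8 mice. This gave 47 genes of the 23880 in the tables, of which 12452 reached the same level, and 1 further symbol, Psma8, a testis alpha subunit, stayed under it in every mouse with a highest level of 0.244 TPM. By role, 14 of the 47 encoded the constitutive core (7 alpha and 7 beta subunits), 17 the cap (6 ATPases and 11 other subunits), 3 the immunoproteasome (Psmb8, Psmb9 and Psmb10), 4 the activators and 8 assembly chaperones or an inhibitor. The last, Psmc3ip, is a meiotic recombination factor that carries the name of its partner only.

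Gastrocnemius, a mixed hindlimb muscle, was taken whole from wild type male C57BL/6JRj mice aged 8, 18, 22 or 24 months (n = 8 each) and 26 or 28 months (n = 9 each), 50 mice in all, 1 library a mouse. The mice came from a commercial aging colony, were housed singly, ate the AIN93M diet and were free of overt illness. The 8- and 18-month mice started the diet in the months before dissection, whereas the 22- to 28-month mice had eaten it since about 18 months of age. Age and diet history therefore cannot be told apart for 22 to 28 against 8 months. The 22- and 28-month mice started the diet at a like age, but the older mice ate it for longer. Age and time on the diet cannot be told apart there either. Total counts ran from 13607229 to 21267375 a library with a median of 16521368. The muscle fibre markers were high, as the tissue label has it, at a median summed level of 205327 TPM at 8 months and 210354 TPM at 28 months. Among the 9 mice of 28 months, replicate 2 stood apart, since it held the highest level of its age for 36 of the 47 members, including all 17 cap genes. Its muscle fibre sum was the lowest of its age, at 153228 TPM beside 193160 to 238240 TPM in the other 8. The part of that lower sum in its member levels was not tested. Values that lose their call or move by over 1.5 times without replicate 2 are therefore given both ways.

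The promoters below are shown because they carry, or lack, letters that known regulators of these genes bind. Upstream windows of 250 bases before an annotated start were found for 40 of the 47 members in the RefSeq annotation of GRCm38.p6, and they were searched on both strands for 3 motifs. In 7 of the 40, among them Psmb8 and Psmb9, the RefSeq start lies inside the gene as GENCODE draws it, so that every window of the gene falls wholly within its span and not before its first start. TGACNNNGC is the core of the antioxidant response element, which Nfe2l1 and Nfe2l2 bind. GAAA and again GAAA, parted by 2 bases, is the core of the interferon-stimulated response element, and CCAAT is the box bound by NF-Y. Capitals mark a match to either of the first 2. The first 2 genes below are cap genes whose levels at 8 and 28 months did not overlap, and neither window holds a match.
Psmd11 (lid subunit, chr11:80428365-80428614, plus strand): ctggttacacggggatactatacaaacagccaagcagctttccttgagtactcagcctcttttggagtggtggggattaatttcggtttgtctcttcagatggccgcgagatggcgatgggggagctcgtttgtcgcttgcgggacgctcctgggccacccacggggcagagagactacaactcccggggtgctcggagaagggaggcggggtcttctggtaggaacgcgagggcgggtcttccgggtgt
Psmd2 (scaffold of the base, chr16:20651402-20651651, plus strand): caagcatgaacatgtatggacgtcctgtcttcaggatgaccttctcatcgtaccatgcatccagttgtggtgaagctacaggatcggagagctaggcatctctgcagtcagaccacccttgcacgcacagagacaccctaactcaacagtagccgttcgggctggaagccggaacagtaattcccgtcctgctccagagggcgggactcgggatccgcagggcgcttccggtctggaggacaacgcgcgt
The next 2 are cap genes that rose and hold the antioxidant core, read on the reverse strand.
Psmc6 (ATPase, chr14:45329574-45329823, plus strand): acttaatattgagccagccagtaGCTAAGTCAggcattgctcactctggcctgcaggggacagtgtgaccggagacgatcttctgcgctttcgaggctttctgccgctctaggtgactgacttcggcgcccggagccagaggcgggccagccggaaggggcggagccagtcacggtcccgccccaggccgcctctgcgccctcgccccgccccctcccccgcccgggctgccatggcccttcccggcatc
Psmd12 (lid subunit, chr11:107479278-107479527, plus strand): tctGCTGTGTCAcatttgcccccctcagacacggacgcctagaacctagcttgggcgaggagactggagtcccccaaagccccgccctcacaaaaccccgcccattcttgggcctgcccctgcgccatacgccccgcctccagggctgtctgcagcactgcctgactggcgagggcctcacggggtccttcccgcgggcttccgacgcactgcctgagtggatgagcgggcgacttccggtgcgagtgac
Another pair are catalytic core genes that did not pass the test and hold the same core on their own strand.
Psmb5 (beta 5, chr14:54617996-54618245, minus strand): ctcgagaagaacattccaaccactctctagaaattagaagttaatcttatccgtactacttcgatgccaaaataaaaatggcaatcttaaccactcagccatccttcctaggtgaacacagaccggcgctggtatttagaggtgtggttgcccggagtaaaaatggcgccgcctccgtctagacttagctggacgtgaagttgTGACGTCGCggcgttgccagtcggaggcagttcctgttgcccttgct
Psmb6 (beta 1, chr11:70525107-70525356, plus strand): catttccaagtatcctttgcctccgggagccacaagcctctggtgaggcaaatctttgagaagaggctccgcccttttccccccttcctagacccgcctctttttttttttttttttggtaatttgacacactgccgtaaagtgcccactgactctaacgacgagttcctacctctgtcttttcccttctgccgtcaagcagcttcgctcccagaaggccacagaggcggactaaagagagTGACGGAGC
The last pair are inducible counterparts, and neither window holds a match. The Psmb8 window ends at a RefSeq start 474 bases past the start of the gene in GENCODE, so the sequence before that first start was not searched.
Psmb8 (inducible beta 5, chr17:34197945-34198194, plus strand): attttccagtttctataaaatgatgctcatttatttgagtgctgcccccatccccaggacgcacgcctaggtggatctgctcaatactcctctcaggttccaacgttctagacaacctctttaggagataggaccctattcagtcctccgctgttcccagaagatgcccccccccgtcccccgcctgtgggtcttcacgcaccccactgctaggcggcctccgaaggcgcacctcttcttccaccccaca
Psmb10 (inducible beta 2, chr8:105938393-105938642, minus strand): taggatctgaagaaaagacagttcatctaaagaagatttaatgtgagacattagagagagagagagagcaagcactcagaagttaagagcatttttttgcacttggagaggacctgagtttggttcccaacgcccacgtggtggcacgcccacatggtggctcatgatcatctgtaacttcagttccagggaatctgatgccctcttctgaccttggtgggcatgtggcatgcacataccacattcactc

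The antioxidant core stood in 5 of 40 members (12.5%), against 11.5% of the 27025 genes with at least 1 window. Its holders were Psmc6, Psmd12, Psmb5, Psmb6 and Psmd9, a mixture of genes that rose and genes that did not pass the test. The interferon-stimulated core stood in 3 of 40 (7.5%) against 3.46% of genes, namely in Psmd4, Psmb3 and Psmd9. The Psmd9 window, which held both cores, lies wholly within its gene. It ends at a RefSeq start 58777 bases past the start of the gene in GENCODE. The CCAAT box stood in 14 of 40 (35%) against 37.5%, in 6 of 11 core and 4 of 14 cap windows. None of the 3 motifs was therefore shared by the cap genes as a class in these windows, which are short and say nothing of distal elements or of binding. Different motifs did not overlap in the printed windows.

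At 8 months the members spanned a wide range of levels. The highest mean was that of Psmd8, a lid subunit, at 401 ± 59.5 TPM (SD, n = 8), and Psmb7, the beta 2 catalytic subunit, followed at 319 ± 31.3 TPM. Those 2 neighbours overlapped, as Psmd8 ran from 334 to 504 TPM and Psmb7 from 292 to 375 TPM. The median member mean was 174 TPM for alpha, 219 TPM for beta, 149 TPM for ATPase and 145 TPM for the other cap subunits. Within these classes the means ran from 73.6 TPM for Psma2 to the 401 TPM of Psmd8. Assembly factors lay an order lower, from 9.50 TPM (Psmf1) to 31.9 TPM (Psmg2). The inducible subunits were scarcer still apart from Psmb10, at 22.6 ± 2.88 TPM for Psmb10, 5.59 ± 1.53 TPM for Psmb8 and 3.26 ± 1.19 TPM for Psmb9.

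Between 8 and 28 months 11 of 17 cap genes rose, no constitutive core gene passed the test, and Psme1 of PA28, Psmb10 of the immunoproteasome and the assembly chaperones Psmg1 and Psmg2 fell. None of these 17 cap genes was lower. Of cap subunits outside the name rule, given below, Sem1 fell by 0.39 and Adrm1 rose by 0.40 on the log2 scale. Of all 47 members 16 were called, 12 higher and 4 lower, and 0 of 14 core genes. The calls used edgeR's quasi-likelihood test on counts, at a Benjamini-Hochberg FDR under 0.01 over 12586 genes. Of all genes tested, 39.6% were called, 21% higher and 18.7% lower, so the members' share as a whole was near the background, and the cap's 11 of 17 stood beside 21%. In whole muscle, fewer cells of a type and less RNA per cell cannot be told apart. All 17 cap genes had a positive log2 fold change with a median of 0.33, the core median was 0.07, and the median of all genes was 0.0072. Without replicate 2 of 28 months, 8 members were higher and 4 lower (18.2% and 16.4% of all genes), the cap count was 7 and the cap median 0.25, with all 17 cap values still positive, and the core median was 0.0020. In a fit of the 2 ages alone, 5 members were higher (14.5% of all genes), 4 of them cap genes, and 3 were lower (12.9%), as Psmb10 lost its call.

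**Figure D1:**
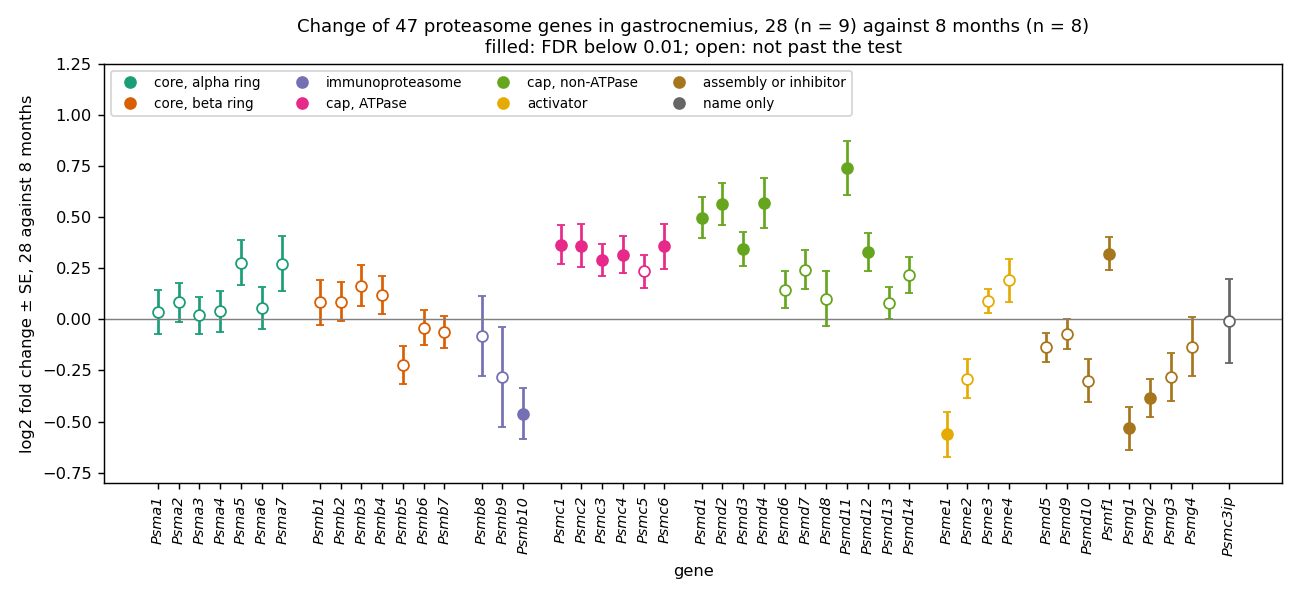
Log2 fold change of each of the 47 members, 28 against 8 months, with its standard error, grouped and coloured by class; filled points passed an FDR of 0.01 and open points did not. All 17 cap genes lie above 0 and 11 are filled, whereas the 14 core genes are all open.

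The lid and base of the cap held the members with the largest increases. Psmd11, a lid subunit that helps to join cap and core, ran from 101 TPM through a median of 112 TPM to 119.7 TPM at 8 months, and from 126 TPM through 173 TPM to 436 TPM at 28 months. Every 28-month mouse lay above every 8-month mouse, and replicate 2 lay far above the other 8, whose highest was 216 TPM. The fitted log2 fold change was 0.74 (SE 0.13, edgeR FDR 1.13e-05), and 0.55 without replicate 2 (edgeR FDR 2.54e-05).

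Psmd4, a ubiquitin receptor of the cap, ranged from 177 to 216 TPM with a median of 194 TPM at 8 months and from 219 to 529 TPM with a median of 308 TPM at 28 months. Again the ages did not overlap, although the lowest old mouse was close to the highest adult. Its log2 fold change was 0.57 (SE 0.12, edgeR FDR 0.000134). Psmd2, a large scaffold of the base, had levels of 193 to 238 TPM (median 214 TPM) at 8 months and 244 to 594 TPM (median 322 TPM) at 28 months, a log2 fold change of 0.56 (SE 0.10, edgeR FDR 1.71e-05). Psmd3, a lid subunit, was the last of the 4 genes without overlap, from 85.9 to 97.5 TPM and from 99.4 to 217 TPM. Its log2 fold change was smaller, at 0.34, and in a fit of the 2 ages alone its edgeR FDR was 0.0170, outside the threshold. Of all genes tested, 1.95% lay wholly higher at 28 months and 1.85% wholly lower, beside 4 and 0 of the 47 members.

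Psmd1, the second scaffold of the base, rose by 0.50 on the log2 scale (SE 0.10, edgeR FDR 7.40e-05), with 6 of 9 old mice above the highest adult. Psmd12, a lid subunit, rose by 0.33 (edgeR FDR 0.00264) and lost its call without replicate 2 and in a fit of the 2 ages alone (edgeR FDR 0.0208). The other 5 cap subunits without ATPase activity did not pass the test, with log2 fold changes from 0.08 for Psmd13 to 0.24 for Psmd7, both of the lid, and without replicate 2 from 0.03 for Psmd8 to 0.15 for Psmd7. Psmd13 ran from 86.1 through 96.9 to 106 TPM at 8 months and from 89.5 through 103 to 137 TPM at 28 months, and these ranges overlapped almost fully (SE 0.08, edgeR FDR 0.389). Psmd14, the deubiquitinase that removes the chain, had a log2 fold change of 0.22 (edgeR FDR 0.0374), and 0.13 without replicate 2 (edgeR FDR 0.172).

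Of the 6 ATPases of the base, 5 rose in the fit of all ages. In a fit of the 2 ages alone these 5 lost their calls, with edgeR FDRs from 0.0122 for Psmc1 to 0.0386 for Psmc6. Psmc1 ranged from 195 through 213 to 236 TPM at 8 months and from 218 through 273 to 442 TPM at 28 months, with 6 of 9 old mice above every adult. It rose by 0.37 on the log2 scale (SE 0.09, edgeR FDR 0.00114). Psmc2, Psmc3, Psmc4 and Psmc6 also rose, by 0.36, 0.29, 0.31 and 0.36 on the log2 scale. Psmc5 ran from 158 through 165 to 187 TPM and from 179.6 through 205 to 287 TPM, and its log2 fold change of 0.23 (SE 0.08) had an edgeR FDR of 0.0127, just outside the threshold. Without replicate 2, Psmc2, Psmc4 and Psmc6 lost their calls, at log2 fold changes of 0.27, 0.25 and 0.25. Their calls were also lost without other single mice: Psmc2 without replicate 5 of 28 months, Psmc4 without replicate 8 of 8 months or 7 of 28 months, and Psmc6 without replicate 2, 4 or 8 of 8 months or 5 or 7 of 28 months.

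**Figure D2:**
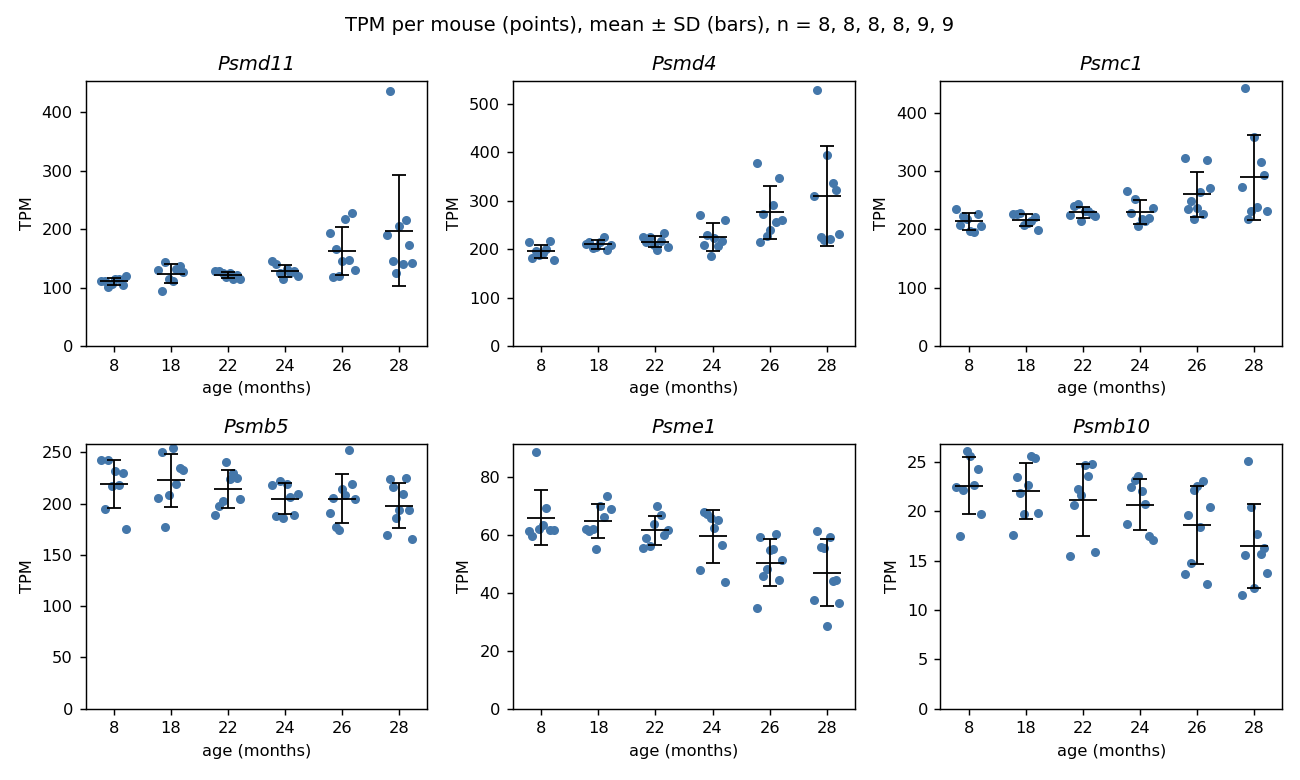
TPM of 6 members in every mouse (points) by age in months, with the mean and SD of each age (bars); each vertical axis starts at 0. Psmd11 and Psmd4 lie higher in all 9 mice of 28 months than in any of 8 months, Psmb5 overlaps between ages, and Psme1 and Psmb10 reach their lowest values at 28 months.

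No constitutive core gene passed the test, with 3 of 14 at an unadjusted p under 0.05 (2 higher, 1 lower) by edgeR, 0 called by DESeq2 and 1, Psma5, by limma on log2(TPM + 1). DESeq2 called 22.2% of all genes higher and 19% lower, limma 22.3% and 14%. Psma5, an alpha ring subunit, ran from 78.6 through 91.3 to 104 TPM at 8 months and from 91.3 through 107 to 199.9 TPM at 28 months. Although 5 of 9 old mice exceeded every adult, its log2 fold change of 0.28 (SE 0.11) had an edgeR FDR of 0.0282. Psma3, also of the alpha ring, ran from 214 through 253 to 285 TPM and from 215 through 250.2 to 415 TPM, with a log2 fold change of 0.02 (SE 0.09, edgeR FDR 0.870) that turned to −0.05 without replicate 2.

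Of the beta ring, Psmb3, a subunit without catalytic activity, had the largest log2 fold change, 0.16 (SE 0.10, edgeR FDR 0.166), with levels of 159 to 218 TPM (median 196 TPM) at 8 and 167 to 293 TPM (median 220.1 TPM) at 28 months. The 3 constitutive catalytic subunits had negative values. Psmb5, the chymotrypsin-like beta 5, ran from 175 through 224 to 243 TPM at 8 months and from 165 through 194 to 225 TPM at 28 months, with a log2 fold change of −0.22 (SE 0.09, edgeR FDR 0.0391). With each mouse left out in turn, Psmb5 was called lower in 1 of 17 fits. Psmb6, the caspase-like beta 1, had levels of 250.4 to 323 TPM (median 305 TPM) and 255 to 327 TPM (median 308 TPM), with a log2 fold change of −0.04 (SE 0.09, edgeR FDR 0.700), −0.02 without replicate 2 and 0.03 by limma on TPM. Psmb7, the trypsin-like beta 2, had levels of 292 to 375 TPM (median 307 TPM) and 273 to 398 TPM (median 315 TPM), with a log2 fold change of −0.06 (SE 0.08, edgeR FDR 0.516) and 0.01 by limma on TPM. All 3 catalytic genes overlapped between the ages, Psmb6 over nearly its whole range. For Psmb5, 7 of 9 old mice lay below the adult mean.

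Among the activators, Psme1 and Psme2, the alpha and beta subunits of the interferon-inducible PA28 ring, stood apart from Psme3 and Psme4. Psme1 ran from 59.5 through 61.9 to 88.5 TPM at 8 months and from 28.5 through 44.4 to 61.2 TPM at 28 months, where 8 of 9 mice lay below the lowest adult. It fell by 0.56 on the log2 scale (SE 0.11, edgeR FDR 4.90e-05). Psme2 ran from 54.8 through 67.1 to 73.5 TPM and from 43.7 through 55.6 to 70.3 TPM, and its log2 fold change of −0.29 (SE 0.10) had an edgeR FDR of 0.0110, just outside the threshold.

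Psme4, which encodes PA200, a single-chain nuclear activator, had levels of 119 to 194 TPM (median 161 TPM) at 8 and 154 to 389 TPM (median 176 TPM) at 28 months. Its log2 fold change of 0.19 (SE 0.10, edgeR FDR 0.118) was 0.06 without replicate 2. Psme3, the nuclear PA28 gamma, had a log2 fold change of 0.09 (edgeR FDR 0.204), and 0.03 without replicate 2 (edgeR FDR 0.678).

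The immunoproteasome genes had negative log2 fold changes, of which that of Psmb10 passed the test. Psmb10, the inducible beta 2, ran from 17.5 through 22.6 to 26.1 TPM at 8 months and from 11.5 through 15.7 to 25.0 TPM at 28 months, and 6 of 9 old mice lay below the lowest adult. It fell by 0.46 on the log2 scale (SE 0.13, edgeR FDR 0.00198), and in a fit of the 2 ages alone the value was −0.46 with an edgeR FDR of 0.0137, outside the threshold. Psmb9, the inducible beta 1, ran from 2.04 through 2.85 to 5.50 TPM and from 1.20 through 2.55 to 4.16 TPM, with a log2 fold change of −0.28 (SE 0.24, edgeR FDR 0.336) that was −0.13 without replicate 7 of 8 months. Psmb8, the inducible beta 5, ran from 3.59 through 5.54 to 7.86 TPM and from 3.11 through 5.68 to 8.63 TPM, with a log2 fold change of −0.08 (SE 0.20, edgeR FDR 0.743) that was −0.15 without replicate 2 of 28 months and 0.016 without replicate 1 of 8 months. These 2 genes overlapped between the ages, and at their low levels the standard errors were larger than those of any other member apart from Psmc3ip.

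Genes for building the particle fell in part. Psmg1, a member of the first chaperone pair for the alpha ring, ran from 11.8 through 13.7 to 15.6 TPM at 8 months and from 7.70 through 9.98 to 14.0 TPM at 28 months, with 8 of 9 old mice below the lowest adult. It fell by 0.53 on the log2 scale (SE 0.11, edgeR FDR 5.46e-05), and Psmg2, its partner, fell by 0.39 (edgeR FDR 0.000574). The second pair, Psmg3 and Psmg4, had log2 fold changes of −0.28 (edgeR FDR 0.0377) and −0.13 (edgeR FDR 0.450). The 3 chaperones of the cap's base, Psmd5, Psmd9 and Psmd10, had log2 fold changes of −0.14, −0.07 and −0.30, none past the test. Psmf1, which encodes the inhibitor PI31, ran from 8.53 through 9.14 to 10.9 TPM and from 9.91 through 11.5 to 15.3 TPM, and it rose by 0.32 on the log2 scale (SE 0.08, edgeR FDR 0.000897). Psmc3ip ranged from 1.42 to 3.12 TPM (median 2.27 TPM) and from 1.30 to 3.43 TPM (median 2.56 TPM), with a log2 fold change of −0.0088 (SE 0.20, edgeR FDR 0.975), and 0.07 without replicate 2 of 28 months.

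Over the 6 ages the calls came late, for the members as for all genes. Positive log2 fold changes against 8 months stood in 12 of 17 cap genes at 18 months, in 14 at 22 and at 24 months, and in all 17 at 26 months. The median cap values at these ages were 0.04, 0.03, 0.07 and 0.25. Against 8 months, edgeR called no member at 18, 22 or 24 months and 7 at 26 months, where 0.0715%, 0.0397%, 0.612% and 18.4% of all genes were called, and none of the 47 had an unadjusted p under 0.05 at 18, 22 or 24 months. At 26 months 5 cap genes were higher (Psmd11, Psmd4, Psmd2, Psmd1 and Psmc3, with log2 fold changes of 0.54, 0.49, 0.38, 0.36 and 0.28), beside 9.84% of all genes. Psme1 and Psmg1 were lower, with log2 fold changes of −0.40 and −0.43, beside 8.54%. No member was called between consecutive ages from 18 months on, and the comparisons of 24 with 22, 26 with 24 and 28 with 26 months called 0% of all genes (22 with 18 months, 0.00795%). At an unadjusted edgeR p under 0.05, 9 members differed between 24 and 26 months, 6 of them cap genes, and none in the other 3 steps. The share of all genes at that p was not taken, so these counts have no background and do not place the change at a step. Across all 6 ages together 15 members differed (11 cap genes, Psme1, Psmf1, Psmg1 and Psmg2), beside 35.4% of all genes.

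For 28 against 22 months, where the diet was started at a like age, 12 members were called, beside 27.7% of all genes. Of the members, 10 were higher and 2 lower, beside 16.2% and 11.5% of all genes. Of these, 9 were cap genes and the tenth was Psmf1, while the 2 that fell were Psme1, by 0.44, and Psmg1, by 0.41 on the log2 scale. Psmb10 had a log2 fold change of −0.36 (edgeR FDR 0.0176). The core again had none called, with 2 of 14 at an unadjusted p under 0.05. Without replicate 2, the genes called higher in this comparison were 2, Psmd11 and Psmd2, beside 11.7% of all genes, and the 2 lower genes kept their calls, beside 8.48%. A fit of the 2 ages alone called none of the 10 higher, beside 9.07% of all genes, and 1 lower, Psmg1, beside 5.9%. With upper-quartile factors 6 members were higher, beside 11.9% of all genes. The comparisons against 8 and against 22 months share the 28-month mice.

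To set the classes side by side in each mouse, the mean log2(TPM + 1) over a class was taken relative to its 8-month mean, as a description without a test. On this scale all genes moved up a little. Their median log2 fold change, 28 against 8 months, was 0.06 by limma on log2(TPM + 1), beside 0.0072 by edgeR. The cap level was 0.00 ± 0.05 (SD) at 8 months, 0.04 ± 0.04 at 18, 0.07 ± 0.05 at 22, 0.10 ± 0.10 at 24, 0.26 ± 0.18 at 26 and 0.38 ± 0.34 at 28 months, or 0.29 ± 0.22 (n = 8) without replicate 2. The number of mice above the highest adult was 4 of 8 at 18 and at 22 months, 6 of 8 at 24, 7 of 9 at 26 and 9 of 9 at 28 months. The old mice were not alike, since 4 of the 9 mice of 28 months lay between 0.08 and 0.11 and the other 5 between 0.36 and 1.11. Those 4 lay close to the highest adult, at 0.06. The core level was 0.13 ± 0.28 at 28 months, with 3 of 9 mice above every adult. Replicate 2 had a core level of 0.70, and the other 8 mice had a mean of 0.06 ± 0.19, with 2 above every adult. The difference of cap and core level in a mouse, which hardly depends on library scaling, had a mean of 0.25 ± 0.12 at 28 months and lay above 0 in all 9 mice, between 0.08 and 0.41 (0.23 ± 0.12 without replicate 2), with 7 of 9 above the highest adult value of 0.17.

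**Figure D3:**
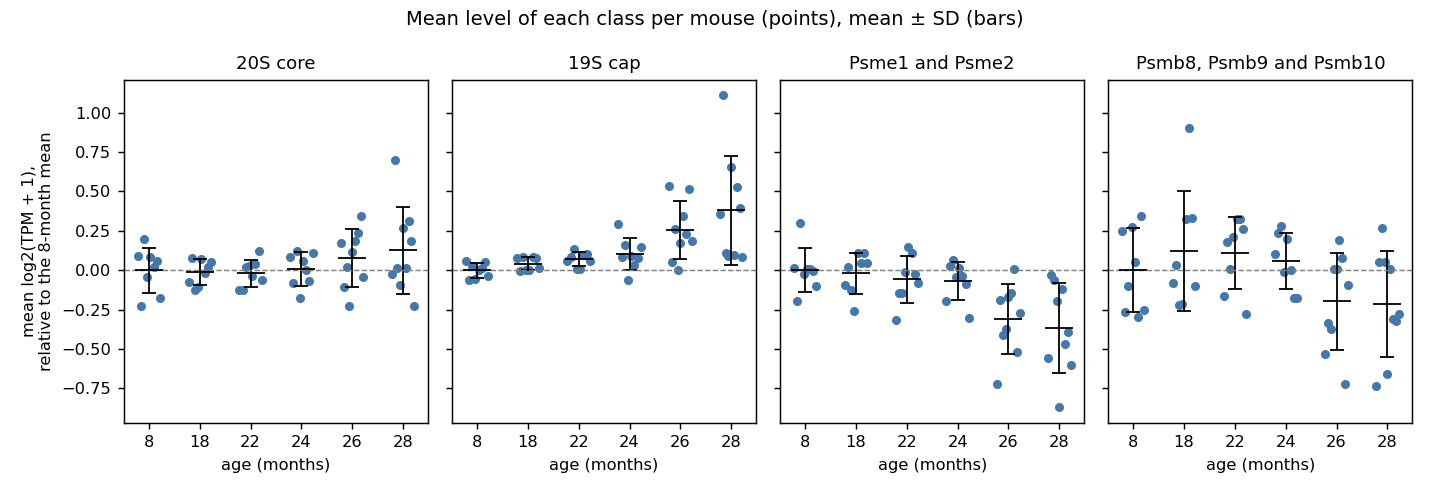
Mean log2(TPM + 1) of the core, the cap, the PA28 alpha and beta pair and the immunoproteasome genes in each mouse (points), relative to the 8-month mean (dashed line), by age in months, with mean and SD (bars). The cap level is above every 8-month mouse in 9 of 9 mice of 28 months, with replicate 2 at 1.11, while the PA28 pair lies below 0 in all 9.

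**Figure D4:**
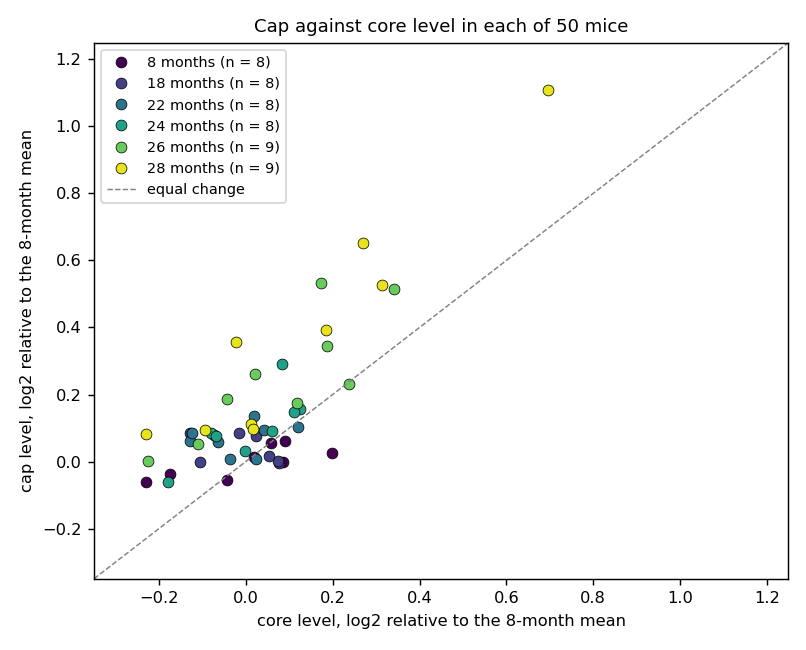
Cap level against core level in each of the 50 mice, both on the log2 scale relative to the 8-month mean and coloured by age; the dashed line marks equal change. All 9 mice of 28 months lie above the line, by 0.08 to 0.41.

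The summed level of the cap genes was 2907 ± 111 TPM at 8 months and 3873 ± 1056 TPM at 28 months, that of the core genes 2814 ± 269.99 and 3084 ± 599 TPM. Without replicate 2 the 28-month sums were 3576 ± 606 TPM for the cap and 2919 ± 361 TPM for the core. The immunoproteasome genes summed to 31.4 ± 4.76 and 24.8 ± 6.26 TPM. Psme1 and Psme2 as a pair had a level of −0.37 ± 0.29 on the log2 scale at 28 months, with 6 of 9 mice below the lowest adult, and replicate 2, which held the highest cap and core levels of its age, was also the highest of the 9 here at −0.03.

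The ratio of each inducible subunit to its constitutive counterpart in the same library compares their RNA levels without library scaling. It is taken over all cells of the muscle and does not give the make-up of a catalytic ring. Psmb10 stood at 7.11% of Psmb7 at 8 months and 5.15% at 28 months. Its log2 ratio ran from −4.08 through −3.83 to −3.52 at 8 months and from −4.86 through −4.30 to −3.70 at 28 months, and 7 of 9 old mice lay below every adult. The mean difference was −0.49 (two-sided exact permutation test over 24310 regroupings, p = 0.00543, adjusted p = 0.0163 over 3 ratios). Psmb9 stood at 1.09% of Psmb6 at 8 and 0.906% at 28 months, a log2 difference of −0.28 (exact permutation test, adjusted p = 0.390), and Psmb8 at 2.54% and 2.83% of Psmb5, a log2 difference of 0.14 (exact permutation test, adjusted p = 0.429). Both of these overlapped between the ages, and the 0.14 ran from 0.061 to 0.24 with each mouse left out in turn.

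Against 22 months the log2 difference was −0.46 for Psmb10 to Psmb7 (exact permutation test, adjusted p = 0.0148), −0.67 for Psmb9 to Psmb6 (exact permutation test, adjusted p = 0.0148) and −0.02 for Psmb8 to Psmb5 (exact permutation test, adjusted p = 0.895). The last was −0.08 without replicate 2 of 28 months (exact permutation test, adjusted p = 0.622). At 22 months Psmb9 stood at 1.41% of Psmb6, above its 8-month share. At a threshold of 0.05 for the adjusted p of these permutation tests, Psmb10 to Psmb7 passed against both ages and Psmb9 to Psmb6 against 22 months. Whether the ratios differ from each other was not tested.

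**Figure D5:**
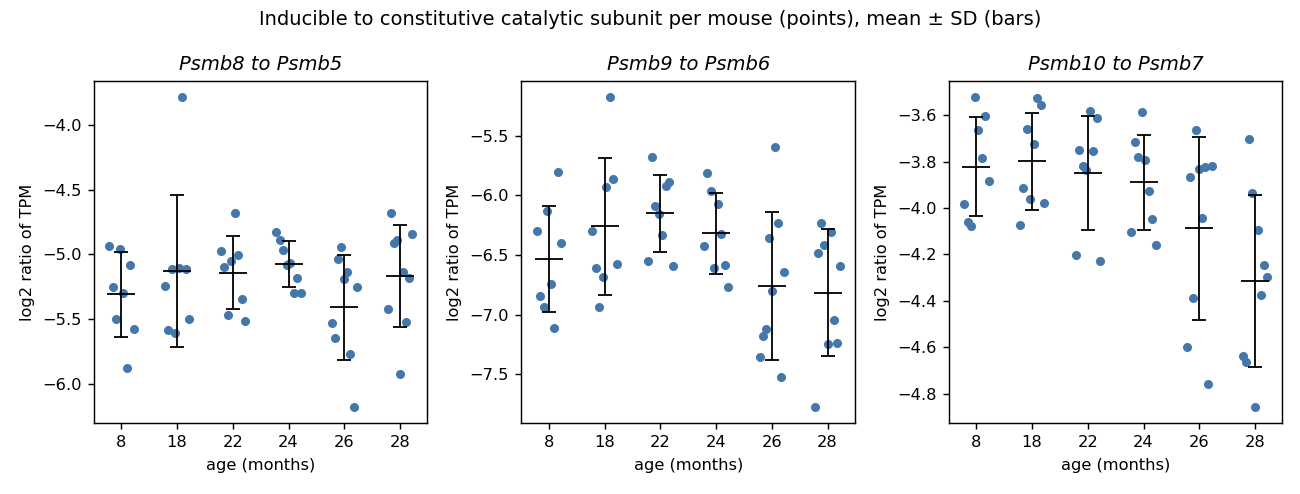
Log2 ratio of TPM of each inducible catalytic subunit to its constitutive counterpart in each mouse (points) by age in months, with mean and SD (bars). Psmb10 to Psmb7 has a mean of −3.82 at 8 months and −4.31 at 28 months, and replicate 6 of 18 months stands highest in Psmb8 to Psmb5 at −3.78.

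Within ages, members of a class varied together from mouse to mouse. After the mean of each age was removed, the median Pearson's r over 50 mice was 0.80 between core genes (91 pairs) and 0.80 between cap genes (136 pairs), and 0.69 between a core and a cap gene (238 pairs). The 3 immunoproteasome genes had a median r of 0.66 with each other, 0.06 with core genes and −0.10 with cap genes. Between a core gene and all genes tested the median was 0.0025, and for a cap gene it was 0.06. Psmb5 and Psmb6 were the core genes that followed the rest of the core least, with r of 0.70 and 0.59 with the core mean and 0.28 and 0.18 with the cap mean. These values are a description, since all pairs share the same libraries and replicate 2 of 28 months is among them.

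Partners and regulators of the 26S particle with other names were read from a list of 22 genes, of which 19 were in the tables. This list, like those below, was chosen with earlier results of these data known, so its counts are a description and no test of an excess. Of these 19, 13 rose and 2 fell between 8 and 28 months, with a median log2 fold change of 0.34, beside 21% and 18.7% of all genes. Without replicate 2, whose summed level of the list was the highest of its age, 10 rose and 2 fell with a median of 0.25. The 2 with the largest changes were Ddi2, the protease that activates Nfe2l1, and Nfe2l2, a transcription factor of the antioxidant response, at log2 fold changes of 1.30 (SE 0.21, edgeR FDR 3.81e-06) and 1.26 (SE 0.24, edgeR FDR 4.24e-05). The further genes named here were chosen after their values were seen. Nfe2l1, the factor known for raising proteasome genes when proteasome activity is low, rose by 0.30 (SE 0.08, edgeR FDR 0.00116), from a median of 483 TPM to 605 TPM. Adrm1, a ubiquitin receptor of the cap, rose by 0.40 on the log2 scale, like the cap genes above, whereas Sem1, the smallest lid subunit, fell by 0.39. Ubqln4, a shuttle for ubiquitinated proteins, fell by 0.19. Of 6 ubiquitin and E1 genes, Ubb rose by 0.59 and Uba1 by 0.19 on the log2 scale, and none fell.

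The lists for the immune context of the inducible subunits gave few calls. Of 9 antigen presentation genes and 13 tested interferon response genes, edgeR, DESeq2 and limma each called 0 between 8 and 28 months, beside 39.6% of all genes by edgeR, with 0 and 2 of them (Irf7 and Usp18) at an unadjusted p under 0.05. Their summed levels ranged from 413 to 550.1 TPM at 8 months and 399.9 to 1122 TPM at 28 months, and from 54.7 to 84.9 and 41.8 to 108 TPM. The 1122 TPM was again replicate 2, and the highest antigen presentation sum of the other 8 was 535 TPM. Psmb10 and Psme1 fell beside these lists.

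Markers of other cells moved with age in the same libraries. The counts stand beside 21% of all genes called higher and 18.7% lower, or 18.2% and 16.4% without replicate 2 of 28 months. Of 9 macrophage markers 6 rose, led by Cd163 at 1.29 and Mrc1 at 0.84 on the log2 scale, and their summed level ran from 192 to 329 TPM at 8 months and from 301 to 807 TPM at 28 months, highest in replicate 2, without which 3 of the 9 rose and the highest sum was 465.95 TPM. Of 2 tested neutrophil markers both rose (S100a8 by 3.35 and S100a9 by 3.24), and their list summed to 2.01 to 7.99 TPM and 12.0 to 278 TPM, highest again in replicate 2. Both also rose without that mouse, with a highest sum of 57.8 TPM. Jchain, of the plasma cell list, rose by 2.70, and the list summed to at most 16.5 TPM at 28 months. All 8 T cell markers had means under 1 TPM and none was tested, with sums of 1.14 to 1.79 and 1.07 to 3.08 TPM.

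Of 5 fibroblast markers 3 fell, led by Col3a1 at −2.28 and Col1a1 at −2.08, with sums of 702 to 1039 and 582 to 793 TPM. Here too the counts stand beside 21% of all genes called higher and 18.7% lower. Of 5 adipocyte markers 4 fell, led by Lep at −3.98 and Plin1 at −1.77, with sums of 93.7 to 366 and 83.5 to 194 TPM, and of 5 endothelial markers Tek fell by 0.40, with sums of 82.2 to 147 and 98.8 to 152 TPM. Of 10 muscle fibre genes Myh1 and Atp2a1 rose by 0.67 and 0.34 and Pvalb fell by 0.74 on the log2 scale, and Myh1 lost its call without replicate 2. Of 7 tested denervation genes 6 rose, led by Runx1 at 2.33 and Gadd45a at 2.30, and their list summed to 108 to 551 TPM at 28 months. The part of these cell types and of denervation in the proteasome changes was not tested.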

How the data were processed

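Gastrocnemius poly(A) RNA of 50 mice was sequenced with strand kept. The authors trimmed reads with Cutadapt 1.9.1 and pseudo-aligned them with kallisto 0.43.1 to protein-coding transcripts of Ensembl on GRCm38, shared a read evenly among the transcripts it matched, summed transcripts per gene, and deposited whole-number counts and TPM per gene, so reads of a pseudogene may have been counted for its parent. Psmb11, Psme2b and Psme3ip1 were not analysed here. Members, roles, gene lists and motifs were chosen with earlier results of these data known. Genes named with full values were Psmb5 to Psmb10, Psme1, Psme2 and, in each class, those with the largest and the smallest log2 fold change; members past FDR 0.01 and, per list, the 2 largest changes past it were also named. The deposited counts were fitted with edgeR 4.0.16 (glmQLFit, TMM factors, R 4.3.3) over all 6 ages in 1 fit without covariates, for the 12586 genes that reached 1 CPM in 8 or more mice, and called at a Benjamini-Hochberg FDR under 0.01; the script was tested on simulated data. The 3 ratios used log2(TPM + 0.1) and two-sided exact permutation tests over mice, at an adjusted p under 0.05. Alternatives were upper-quartile and RLE factors, DESeq2 1.42.0, limma 3.58.1 on log2(TPM + 1) and log2(TPM + 0.1), no filter, 2 ages alone, a block for the replicate number, and every mouse of 8 or 28 months left out in turn. The strand of the RefSeq promoter windows was checked against GENCODE transcripts. Each library came from 1 mouse. A motif and a list gene that were also considered are not reported here.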

Additional observations from a re-analysis of the deposited data

Results flagged for a closer look

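Of 162 sets of values of 1 age checked (named genes, class levels and ratios), 10 had a mouse whose gap to its nearest neighbour was larger than Dixon's 95% limit; chance alone gives about 1 in 20. In replicate 2 of 28 months these were Psmd11 at 436 TPM (next highest 216 TPM), Psme4 at 389 TPM (next 202 TPM), Psma3 at 415 TPM (next 300.1 TPM), Psma5 at 199.9 TPM (next 141 TPM), Psmg1 at 14.0 TPM (next 10.8 TPM), and the activator level at 0.49 on the log2 scale. The same mouse held the highest macrophage and neutrophil marker sums and the lowest muscle fibre sum of its age, and their part was not tested.

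Replicate 6 of 18 months had Psmb8 at 15.8 TPM (next 7.29 TPM) and a log2 ratio of Psmb8 to Psmb5 of −3.78. The same mouse had the highest interferon response sum of its age, 377 TPM beside a median of 82.5 TPM, and its part was not tested. Replicate 3 of 8 months had Psme1 at 88.5 TPM (next 69.4 TPM), and replicate 2 of 18 months had Psmb7 at 355 TPM (next 313 TPM).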

How the results depend on the processing

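The class medians kept their sign under every alternative run. With 2 ages in the fit, the members called were 5 higher for 28 against 8 months (4 cap genes) and 0 higher and 1 lower for 28 against 22 months; with upper-quartile factors the last comparison gave 6 higher. Limma on log2(TPM + 1) and on log2(TPM + 0.1) each called 1 core gene higher, and 1 of the 17 fits with a mouse left out called Psmb5 lower. With each mouse left out in turn, 8 to 14 members were higher, 4 to 8 lower (8 without replicate 8 of 8 months), and 7 to 13 cap genes higher (7 without replicate 2 of 28 months). Beside them, 2287 to 2865 of all 12586 genes were higher and 2042 to 2558 lower. Leaving out replicate 2 of 28 months, chosen after seeing the data, gave 2 higher for 28 against 22 months. Against 22 months the log2 difference of Psmb8 to Psmb5 was −0.023 with all mice and −0.084 without that mouse. That of Psmb9 to Psmb6 was −0.67 and −0.71. Log2 fold changes turned sign in 8 members, and the turned values reached at most 0.083 in size: Psma3 (−0.041 with upper-quartile factors, −0.047 to 0.070 with mice left out), Psma1 (−0.026 with upper-quartile factors, −0.083 without replicate 2), Psma4 (−0.021 and −0.051), Psma6 (−0.0032 with upper-quartile factors), Psmb6 (0.032 and 0.033 by limma with pseudocounts 1 and 0.1), Psmb7 (0.012 by limma with either), Psmb8 (−0.17 to 0.016 with mice left out) and Psmc3ip (0.033 and 0.037 by limma, −0.086 to 0.074 with mice left out). The causes were not tested.

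The replicate numbers did not pair the mice, with correlations of same-numbered mice of 8 and 28 months from −0.16 to 0.16. A fit with the number as a block called 12 members higher and 4 lower for 28 against 8 months, beside 2597 and 2357 of all 12586 genes. For 28 against 22 months it called 11 and 2, beside 1967 and 1484 of all genes. A wider spread at 28 months enters the shared estimate for all ages, and low levels limit Psmb8 and Psmb9.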
